A study of Mus musculus with 6 samples.

Results

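The dense clusters of distal crypt peaks described here were stretches of mouse chromosomes 1 to 19 in which at least 5 open chromatin regions lay close together, away from gene starts. They were chosen by a rule on peak calls. Peaks from the 6 deposited ATAC-seq lists were merged where they shared at least 1 base, which gave 69957 consensus peaks. Of these, 32147 were present in all 6 lists, and 16496 of those had their best summit more than 2 kb from any transcription start site (TSS) in GENCODE M21 (GRCm38). Joining neighbours separated by gaps of up to 12500 bp gave 11456 runs, and the 188 runs with at least 5 peaks were kept as clusters. Their 1132 members were 6.86% of the distal peaks called in all 6 lists and 1.62% of all consensus peaks.

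The study asked how chromatin accessibility in the intestinal epithelium differed after loss of Arid3a, which encodes an A+T-binding transcription factor. ATAC-seq, in which Tn5 transposase cuts open chromatin, was performed on 3 WT and 3 Arid3a cKO (VillinCre-ERT2+/-; Arid3a fl/fl) samples of small-intestinal crypts. Mice of both genotypes received tamoxifen by intraperitoneal injection on 3 consecutive days and were culled 1 month after the first injection. The Cre is driven by the Villin promoter, so deletion was directed to epithelial cells and other cells in a crypt preparation keep the gene. The age of the mice and the full genotype of the WT mice were not given in the sources used here. The lists held 40584 to 58358 peaks, and their commonest background, taken as the genome-wide coverage, was 1.75 to 2.29 fragments per base. Promoter peaks in all 6 lists were found for 10 of 12 intestinal epithelial marker genes, 3 of 22 leukocyte markers and 8 of 25 mesenchymal, endothelial, muscle and neural markers.

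Distal open regions often carry enhancers, short stretches where transcription factors bind and act on promoters at a distance. Genes that define a cell type are commonly surrounded by many such elements, and the term super-enhancer was coined for neighbouring enhancers joined on the strength of bound factors or histone marks. ATAC-seq measures neither, so the clusters here are groups of open regions and no more. In crypts, stem and transit-amplifying cells are maintained by Wnt signalling, and factors such as AP-1, CDX, GATA, HNF4, KLF, ETS and TCF family members act at distal elements of the epithelium.

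The sequences of 5 members are shown, chosen as strong elements of the widest clusters and as the extremes of the genotype comparison. Each is the 201 bases centred on the best summit, on the plus strand of GRCm38, with matches to the motifs searched in capitals. The first 3 were the members of highest mean fold in clusters that ranked among the 4 widest. They lay upstream of Vdr on chr15:97918182-97918382, upstream of Tmprss2 on chr16:97632873-97633073 and upstream of Dstn on chr2:143890034-143890234, all intergenic. The corresponding member of the widest cluster, nearest to Eif4b on chr15:102052226-102052426, held 0 matches and is not shown. The fourth lay in an intron of Cdh1 on chr8:106616056-106616256 and had the smallest p of all members lower in cKO. The fifth lay between genes on chr4:150176648-150176848, downstream of Slc2a7, and had the smallest p of all members higher in cKO.
Vdr member: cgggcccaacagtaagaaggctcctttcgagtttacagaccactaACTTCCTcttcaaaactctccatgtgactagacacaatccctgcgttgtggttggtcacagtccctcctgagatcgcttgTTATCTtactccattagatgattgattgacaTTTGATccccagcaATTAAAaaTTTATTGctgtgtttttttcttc
Tmprss2 member: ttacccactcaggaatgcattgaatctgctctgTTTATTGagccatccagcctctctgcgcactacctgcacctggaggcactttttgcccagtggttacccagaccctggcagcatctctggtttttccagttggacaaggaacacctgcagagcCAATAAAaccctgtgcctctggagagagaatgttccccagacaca
Dstn member: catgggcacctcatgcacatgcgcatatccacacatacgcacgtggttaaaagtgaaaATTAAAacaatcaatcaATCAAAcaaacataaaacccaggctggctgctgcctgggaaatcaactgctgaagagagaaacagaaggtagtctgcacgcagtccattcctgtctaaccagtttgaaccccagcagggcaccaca
Cdh1 member: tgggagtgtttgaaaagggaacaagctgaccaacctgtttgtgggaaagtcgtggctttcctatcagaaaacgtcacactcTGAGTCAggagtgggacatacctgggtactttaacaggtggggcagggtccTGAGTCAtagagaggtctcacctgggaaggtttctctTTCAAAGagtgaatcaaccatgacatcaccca
Slc2a7 member: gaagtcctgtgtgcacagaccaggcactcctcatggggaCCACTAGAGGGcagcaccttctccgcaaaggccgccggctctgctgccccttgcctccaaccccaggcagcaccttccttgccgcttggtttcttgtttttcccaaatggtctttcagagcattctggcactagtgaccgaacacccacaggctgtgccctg
In the Vdr member the capitals mark, from 5′ to 3′, an ETS, a GATA, 2 ARID3 matches and a CDX match. The Tmprss2 member held 2 CDX matches and the Dstn member 2 ARID3 matches. The Cdh1 member held 2 AP-1 matches, both TGAGTCA, and a TCF match, and the Slc2a7 member held a CTCF match. A match is a run of letters and not a shown binding site.

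The clusters varied in size, and most were close to the lower limit of the rule. Of the 188 clusters, 99 held exactly 5 peaks and 24 held at least 8, with a maximum of 16. Their spans ranged from 12.496 to 105.647 kb, with a median of 30.7 kb and a total of 6.29 Mb. The summed width of the members of a cluster ranged from 3152 to 15828 bp, with a median of 6095 bp, and members covered a median of 20.6% of their span. The median gap between neighbouring members was 4.96 kb, against 29.6 kb between all neighbouring distal peaks called in all lists, a difference that the rule itself set. Just inside the rule, clusters of 5 peaks had a median summed width of 5213 bp. Just outside it, the 291 runs of 4 peaks had a median of 4187 bp and reached 8141 bp, above the median cluster. The largest gap that was joined was 12444 bp and the smallest that was not was 12509 bp.

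**Figure D1:**
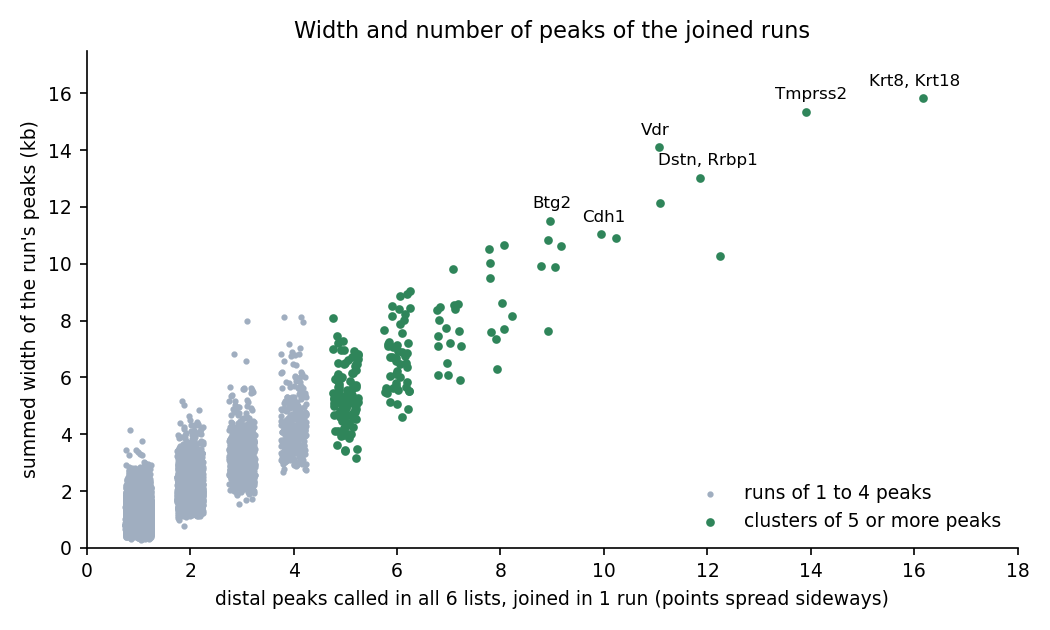
Summed width of member peaks in kb against the number of peaks for each of the 11456 runs of joined distal peaks, 1 point per run, spread sideways for visibility. The runs of 4 peaks and the clusters of 5 peaks overlap in width, and the Krt8 and Krt18 cluster stands at the upper end with 16 peaks and 15828 bp.

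Keratin, protease, receptor and actin-regulating genes lay at the 4 widest clusters. The first, at chr15:101975683-102052755, held 16 peaks with a summed width of 15828 bp around Krt8 and Krt18, which encode the keratin pair of simple epithelia. The next held 14 peaks (15359 bp) at chr16:97592812-97698458 over and upstream of Tmprss2, a transmembrane serine protease gene. The third held 11 peaks (14099 bp) at chr15:97889733-97953300 around Vdr, which encodes the vitamin D receptor. The fourth held 12 peaks (13029 bp) at chr2:143889599-143948526 over Dstn, an actin-severing factor gene, and Rrbp1, which encodes a ribosome-binding protein of the endoplasmic reticulum.

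Ranks 5 to 8 were of similar make. A cluster of 11 peaks (12143 bp) in and beside Gng7, a G protein subunit gene, began 2491 bp from a TSS of the stress-response gene Gadd45b. A cluster of 9 peaks (11519 bp) surrounded Btg2, an antiproliferative gene, and one of 10 peaks (11032 bp) lay mostly within introns of Cdh1, which encodes E-cadherin. Rank 8, with 10 peaks (10900 bp), overlapped Taf8, a gene of the general transcription factor TFIID, and AI661453. Ranks 9 to 12 overlapped Plekha6, no protein-coding gene (3410 bp from a TSS of Nfkbia, the NF-κB inhibitor), Coro2a, an actin-binding coronin gene, and Lipc, the hepatic lipase gene. Their summed widths were 10852, 10661, 10641 and 10504 bp.

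**Figure D2:**
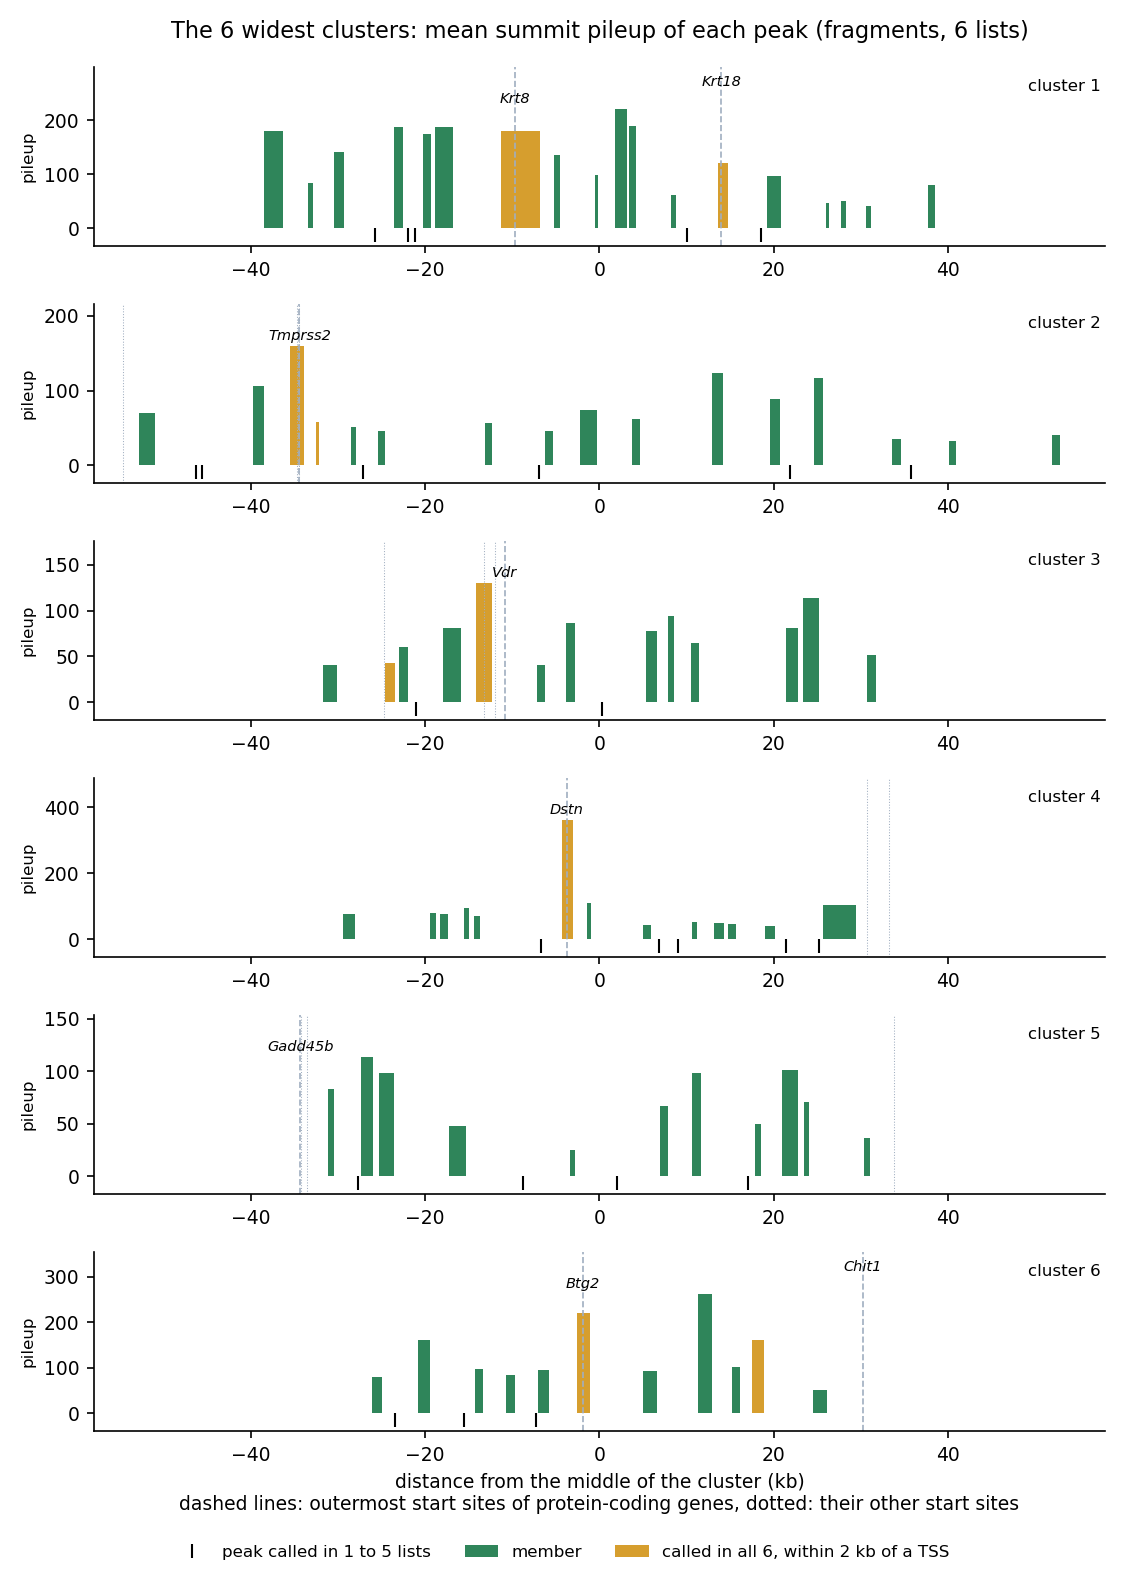
Peaks of the 6 widest clusters, at Krt8 and Krt18, Tmprss2, Vdr, Dstn and Rrbp1, Gng7, and Btg2, drawn by distance in kb from the middle of each cluster. Bar height is the mean summit pileup in fragments over the 6 lists and bar width is the width of the peak. Members of very different height stand beside each other, from 41.0 to 221 fragments in the first cluster.

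Members of the same cluster differed widely in strength. The pileup, the number of fragments over the summit, was recovered for each peak from its deposited fold and p. In the Krt8 and Krt18 cluster the mean pileup of members ranged from 41.0 to 221 fragments, in the Tmprss2 cluster from 33.0 to 123 and in the Cdh1 cluster from 29.8 to 137. Over all 188 clusters, the strongest member had a median of 3.37 times the mean pileup of the weakest, with a range of 1.36 to 10.1 times. The intraclass correlation of the normalised log2 pileup level within clusters was 0.184 over the 1132 members, against 0.236 over the 6968 peaks in runs of 2 to 4. For the log2 fold level the order was the other way, with 0.158 in members and 0.12 in runs of 2 to 4. These values describe peaks that share libraries and base composition and carry no test.

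Most clusters had a protein-coding TSS within 50 kb, and 130 of the 188 held no peak within 2 kb of a TSS among those called in all lists. Of the 188, 114 overlapped the body of a protein-coding gene, 59 held a protein-coding TSS within their span and 21 had none within 50 kb. For the 129 clusters with the nearest protein-coding TSS outside the span, its median distance was 13.4 kb. Among members, 51.9% were intergenic (95% Wilson interval 49.0 to 54.8), 45.5% intronic (42.6 to 48.4) and 2.56% exonic (1.79 to 3.65). Among the 8396 lone distal peaks, those with no neighbour in reach, the shares were 44.3%, 49.9% and 5.84%. Members lay farther from the nearest TSS of any gene, at a median of 12737 bp against 9668 bp for lone distal peaks. Intervals here and below cover counting error only, and neighbouring members are not independent.

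Listed genes of epithelial junctions and keratins were often near a cluster. This gene list and those below were chosen with earlier results of these data known, so their shares are a description and no evidence of enrichment. Of 24 listed genes on these chromosomes, 9 (37.5%, 95% Wilson interval 21.2 to 57.3) had a TSS within 50 kb of a cluster, against 422 of all 20807 protein-coding genes (2.03%). These 9 lay at 7 clusters, since Krt8 and Krt18 shared a cluster, as did the tight-junction genes Cldn3 and Cldn4. The others were Cdh1, Epcam, an epithelial adhesion molecule, Ocln, which encodes occludin, and the keratin genes Krt19 and Krt20. The Epcam cluster had 6 peaks (8247 bp) at chr17:87602464-87628911, 7068 bp from the nearest Epcam TSS. The cluster within the Cldn3 region had 7 peaks (7737 bp) at chr5:134950839-134990154 and lay 3905 bp from a TSS of Cldn4.

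Transcription factor and Wnt genes were also represented. Of 50 epithelial transcription factor genes, 9 (18%) lay within 50 kb of a cluster. They were Vdr, the ETS factor genes Elf3 and Ets2, the Wnt effector Tcf7l2, Klf6, the Notch target Hes1, Sox9, the AP-1 member Fosl2 and the intestinal identity factor Cdx2, 42740 bp from its cluster. Of 30 crypt base and Wnt target genes, 5 (16.7%) did, namely Lrig1, a brake on ErbB receptors, Rnf43, a ligase that removes Wnt receptors, the sorting receptor gene Ephb2, and again Sox9 and Tcf7l2. A cluster of 6 peaks (7567 bp) overlapped Lrig1, and one of 5 peaks (7458 bp) overlapped Rnf43.

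Among absorptive genes, a cluster lay within 50 kb of Anpep, which encodes a brush-border aminopeptidase, of Krt20 and of Slc2a5, the fructose transporter gene. Among 30 growth factor and TGF-β signalling genes there were 3, namely the receptor gene Met, Id3 and the antagonist Spry1. None of 34 secretory genes (95% Wilson upper limit 10.2%), 22 leukocyte markers (14.9%) or 25 mesenchymal, endothelial, muscle and neural markers (13.3%) did. The lists are short, were chosen with earlier results of these data known and were not tested against each other.

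**Figure D3:**
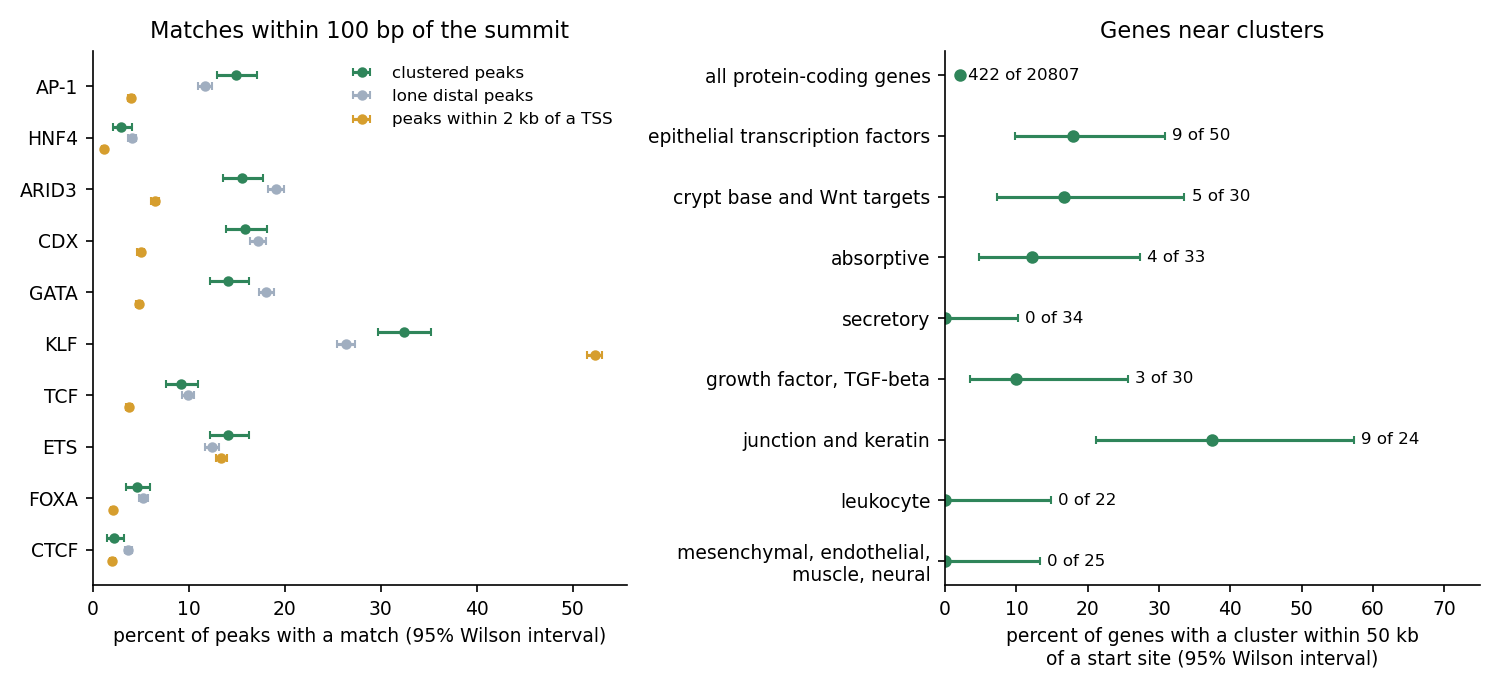
Left, percent of peaks with a match to each motif within 100 bp of the summit, for clustered, lone distal and TSS-near peaks. Right, percent of the genes of each list with a cluster within 50 kb of a TSS, with counts; points are shares and bars 95% Wilson intervals. AP-1 and KLF shares of clustered peaks lie above those of lone distal peaks, and junction and keratin genes have the highest share, 9 of 24. Motifs and gene lists were chosen with earlier results of these data known.

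The letters around member summits differed from those of lone distal peaks in composition and motif shares. Within 100 bp of the summit, A+T content averaged 48.5% (SD 6.85, 1132 peaks) in members, 50.5% (SD 7.82, 8396 peaks) in lone distal peaks and 36.8% in TSS-near peaks. AP-1 letters (TGACTCA or TGAGTCA, both strands) were found in 14.9% of members (95% Wilson interval 12.97 to 17.12) and 11.7% of lone distal peaks (11.03 to 12.40). KLF letters (CCNCNCCC) were found in 32.4% (29.8 to 35.2) and 26.4% (25.5 to 27.4), and in 52.3% of TSS-near peaks. ARID3 letters (ATCAAA or ATTAAA) were found in 15.5% of members (13.6 to 17.8) and 19.1% of lone peaks (18.3 to 19.96), and GATA letters (AGATAA) in 14.1% (12.2 to 16.3) and 18.1% (17.3 to 18.9). The CTCF core was found in 2.21% (1.5 to 3.24) and 3.72% (3.33 to 4.14). Against peaks in runs of 2 to 4, the intervals of members overlapped for AP-1 (12.2%, 11.5 to 13.02), KLF (28.9%, 27.9 to 30.02), ARID3 (18.2%, 17.3 to 19.1) and CTCF (3.01%, 2.64 to 3.44), and not for GATA (17.6%, 16.7 to 18.5). The KLF difference between members and lone peaks was 6.02 percentage points within 100 bp of the summit and 2.90 points within 50 bp.

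Shares of the other motifs had overlapping intervals in members and lone peaks. They were 2.92% and 4.09% for HNF4 (CAAAGTCCA or CAAAGTTCA), 15.9% and 17.2% for CDX (TTTATNG), 14.1% and 12.4% for ETS (AGGAAGT or CGGAAGT), 9.19% and 9.93% for TCF (CTTTGAA or CTTTGAT), and 4.59% and 5.25% for FOXA (TGTTTAC). The ARID3 letters ATCAAA read on the other strand are part of CTTTGAT, so a position can count for both. The part of base composition in these differences was not tested. Within clusters the matches were spread, with AP-1 letters in at least 1 member of 115 of 188 clusters and in at least 2 members of 44. The Tmprss2 cluster held CDX letters in 6 of 14 members, the Coro2a cluster GATA letters in 6 of 9, and the Krt8 and Krt18 cluster KLF letters in 8 of 16.

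Clustered peaks were stronger than lone distal peaks by pileup in every list, while their fold over the local background was lower. The rule required both kinds of peak in all 6 lists and used level only to choose the best summit. A call itself depends on the pileup over the local background. Ranked among the 32147 peaks called in all lists, the median member stood at a pileup percentile of 50.7, 50.95 and 51.1 in the WT lists, numbered 1, 2 and 3, and of 50.4, 49.9 and 50.5 in the cKO lists in the same order. Lone distal peaks stood at 27.5 to 29.3. The difference averaged 22.4 percentile points (SD 1.044, n = 6 lists) and members were higher in 6 of 6 lists. Peaks in runs of 2 to 4 stood in between in every list, at 38.8 to 39.9. The pileup comparison was chosen after the data were seen, and it is given without a test. Where the background is higher, a peak needs a higher pileup to be called, and the part of this in the difference was not tested. By fold enrichment, the summit pileup over the local background, the median member stood at 32.1, 29.2 and 25.2 in WT and 20.4, 28.4 and 21.8 in cKO, against 38.4 to 49.7 for lone peaks. This difference averaged -17.5 points (SD 9.12, n = 6 lists) and members were lower in 6 of 6 lists. Peaks in runs of 2 to 4 again stood in between in every list, at 32.0 to 35.1. The rule chose dense stretches, and the local background divides the fold, so the fold difference is given without a test.

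The background that divides the pileup was itself higher in clusters. Its median at member summits was 1.74 to 2.87 times that at lone summits in the same list, on average 2.31 times (SD 0.407, n = 6 lists), while the pileup ratio averaged 1.63 (SD 0.0739). The study described no input control, and this background ratio likewise carries no test. Median width differed less, by 32.0 bp on average, and members were wider in 4 of 6 lists (exact permutation, p = 0.125).

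**Figure D4:**
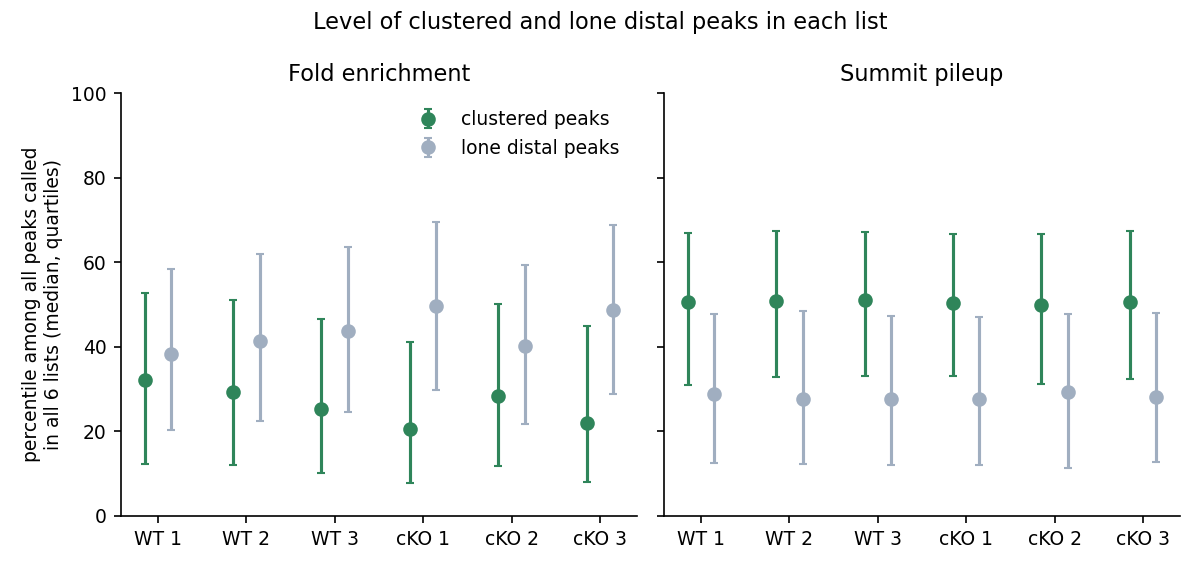
Percentile of clustered and lone distal peaks among the peaks called in all 6 lists, by fold enrichment (left) and by summit pileup (right), for each list. Points are medians and bars quartiles over peaks. Clustered peaks lie below lone peaks on the left and above them on the right in all 6 lists.

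No clustered peak passed the test between genotypes after adjustment. The log2 fold of each peak, quantile-normalised across the 6 lists, was compared with limma over all 32147 peaks. At an adjusted p under 0.05, 0.0% of all peaks passed, and 0 of the 1132 members (smallest adjusted p 0.529). At an unadjusted p under 0.05, 21 members (1.86%) were higher and 49 (4.33%) lower in cKO, against 4.9% higher and 2.53% lower over all peaks. With log2 pileup in place of fold, limma passed 4 of all peaks (0.0124%) and 0 members (smallest adjusted p 0.134), and 104 members (9.19%) had an unadjusted p under 0.05, against 8.38% of all peaks. The median member difference was -0.08 log2 fold, against -0.02 over all peaks and 0.07 over lone peaks, and 0.00 in log2 pileup, the same as over all peaks.

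The lower fold of members in cKO stood beside differences in the level of whole lists. The median fold percentile of members was 28.8 ± 3.44 in WT and 23.6 ± 4.24 in cKO (SD, n = 3 each, exact permutation p = 0.2), with overlapping groups, where 3 against 3 lists cannot give a p below 0.1. It was highest in WT 1, the list with the lowest median pileup over all constant peaks (35.0 fragments), and lowest in cKO 1, the list with the highest (91.0 fragments). The median background at member summits was 7.88 ± 2.00 fragments in WT and 11.6 ± 4.93 in cKO (exact permutation p = 0.3). The part of these list-wide values in the fold difference was not tested. The cKO minus WT difference in median fold percentile was -5.29 points for members and -3.34 for TSS-near peaks. It was -0.76 for peaks in runs of 2 to 4 and 5.04 for lone peaks. By pileup percentile the median member stood at 50.9 ± 0.217 in WT and 50.3 ± 0.345 in cKO, without overlap. That difference was -0.63 points (exact permutation p = 0.1, the smallest possible).

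At the Cdh1 intron member whose sequence is shown, peak chr8:106615820-106616497, 12013 bp from a TSS, the deposited fold was 3.58, 3.38 and 3.01 in WT and 2.22, 2.50 and 1.70 in cKO. The groups did not overlap, and the normalised difference was -0.58 log2 (SE 0.15, limma adjusted p = 0.529). Its pileup was 55, 86 and 94 fragments in WT and 102, 44 and 64 in cKO, where the median pileup over all constant peaks was 35.0, 53.0 and 66.0 and 91.0, 42.0 and 67.0. Relative to that median it was thus lower in every cKO list than in any WT list, and the normalised pileup difference was -0.57 log2 (limma adjusted p = 0.167). The whole Cdh1 cluster differed by -0.12 log2 fold, with overlapping groups.

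The other members with the smallest p in the lower direction were nearest to Zfp36l2 (-0.64 log2 fold), an mRNA-decay factor gene, Casz1 (-0.67), a zinc-finger factor gene, Gm5294 (-0.59) and Ptma (-0.61), all with limma adjusted p of 0.529 to 0.554. The nearest protein-coding TSS was 13277 (Casz1) to 71522 bp (Zfp36l2) away. The Zfp36l2 member had folds of 5.27, 8.18 and 7.41 in WT and 4.70, 4.48 and 4.15 in cKO, again without overlap. This member and the Cdh1 one were picked for their small p, so the separation of the groups follows in part from the choice. Over all 11456 runs, most of them single peaks, every cKO list lay below every WT list in 4.18%.

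In the higher direction, the member nearest to Slc2a7, a hexose transporter gene, had folds of 3.66, 5.71 and 5.70 in WT and 11.8, 5.91 and 7.65 in cKO. The difference was 0.75 log2 (SE 0.21, limma adjusted p = 0.529), and cKO 1 stood well above the other lists. Its pileup was 16, 20 and 23 fragments in WT and 64, 20 and 28 in cKO. The cluster it belongs to, which also contains a TSS of Slc2a5, held 6 peaks and differed by 0.14 log2 fold. Members nearest to Ralgps2 (0.48), Tekt5 (0.41), Mab21l3 (0.49) and Klf6 (0.54) followed, with limma adjusted p of 0.605 to 0.621. Their nearest protein-coding TSSs were 20735 (Tekt5) to 70033 bp (Ralgps2) away.

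Averages over the members of each cluster were compared in the same way. Over all 11456 runs, limma passed 0.0% at an adjusted p under 0.05, and 0 of 188 clusters (smallest adjusted p 0.696). No cluster reached an unadjusted p under 0.05, against 6.36% of runs higher and 1.13% lower in cKO, but these shares cannot be compared directly. Of the runs, 8396 were single peaks, whereas a cluster value is a mean over at least 5, and limma drew each variance towards a trend fitted over all runs, so the standard errors of clusters rest in part on the spread of single peaks. A fit of clusters alone was not made. With pileup in place of fold limma passed 1 run (0.00873%) and 0 clusters, and 2 clusters (1.06%) had an unadjusted p under 0.05, against 9.16% of runs. Cluster differences ranged from -0.30 to 0.19 log2 fold with a median of -0.07, against 0.05 over all runs, and the median was 0.00 by log2 pileup. In 17 clusters (9.04%) every cKO list lay below every WT list and in 3 (1.6%) above, against 4.18% and 8.66% of all runs, most of them single peaks.

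Among the 12 widest clusters, the Plekha6 and Coro2a clusters were those without overlap. The mean normalised fold of the Coro2a members was 5.27, 5.33 and 5.23 in WT and 4.72, 4.96 and 4.74 in cKO, a difference of -0.13 log2 (SE 0.12, limma adjusted p = 0.797). That of the Plekha6 members was 5.62, 5.57 and 5.34 in WT and 4.68, 5.13 and 5.32 in cKO, a difference of -0.13 log2 (SE 0.13, limma adjusted p = 0.811). The Krt8 and Krt18 cluster stood at 4.29, 4.04 and 3.96 in WT and 3.73, 4.25 and 3.79 in cKO, with overlap. The Tmprss2 cluster stood at 6.45, 6.07 and 5.96 in WT and 5.84, 6.37 and 5.70 in cKO, and the Vdr cluster at 5.52, 4.72 and 4.56 in WT and 4.36, 4.95 and 4.27 in cKO, also with overlap. In both, cKO 2 lay within the WT range and the other cKO lists below it. The normalised differences of these 3 clusters took opposite signs by fold and by pileup. They were -0.06 log2 fold and 0.07 log2 pileup for Krt8 and Krt18, -0.05 and 0.05 for Tmprss2, and -0.12 and 0.11 for Vdr.

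**Figure D5:**
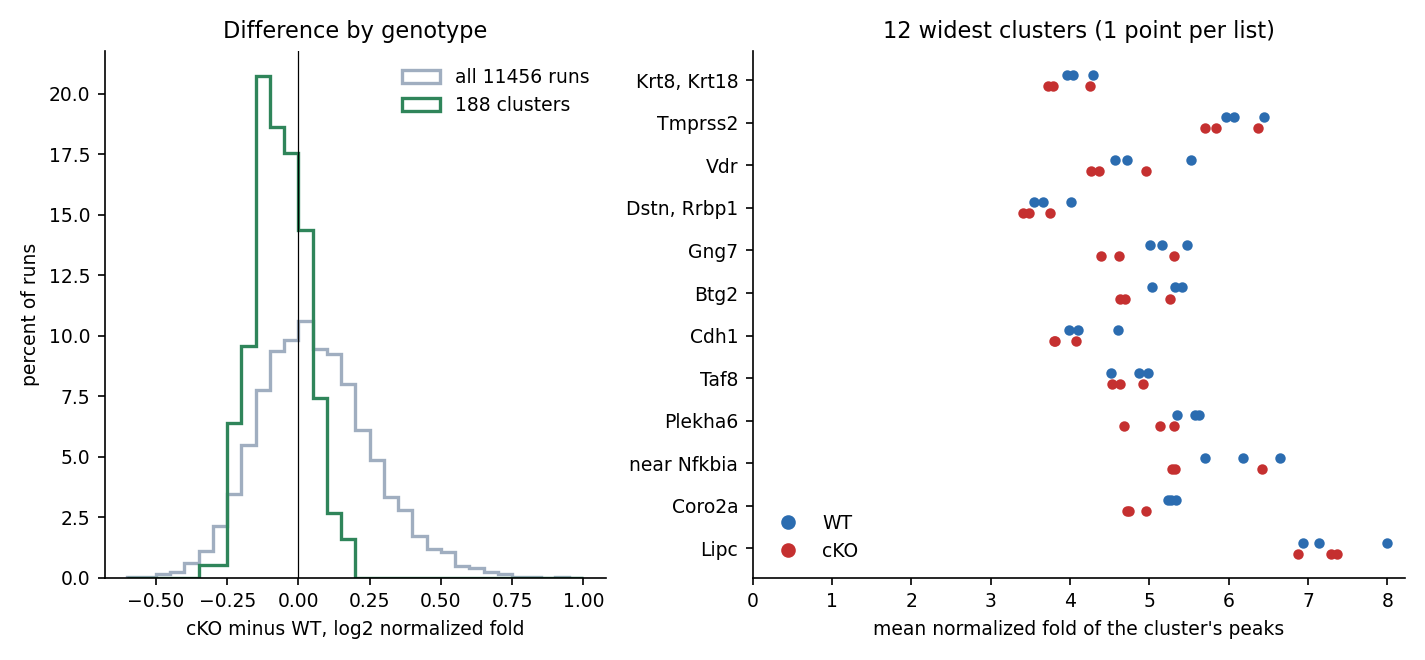
Left, distribution of the cKO minus WT difference in log2 normalised fold over all 11456 runs and over the 188 clusters, as percent of each. Right, mean normalised fold of members in each list for the 12 widest clusters, 1 point per list. Cluster values, each a mean over at least 5 peaks, range from -0.30 to 0.19, whereas most runs are single peaks, and only the Plekha6 and Coro2a clusters of these 12 have groups that do not overlap.

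The clusters with the smallest p in each direction did not pass the threshold. Lower in cKO were those at Ctnnd1, which encodes p120-catenin (-0.30 log2 fold, limma adjusted p = 0.696), Lima1, an actin-binding gene (-0.23, adjusted p = 0.710), and Zfp747 (-0.23, adjusted p = 0.710). Higher were those near Lgalsl (0.19, limma adjusted p = 0.784), at the Wnt ligand gene Wnt8a (0.17, adjusted p = 0.788) and at the transporter gene Slco3a1 (0.13, adjusted p = 0.809). By log2 pileup the Ctnnd1 and Lgalsl clusters took the other sign, 0.02 and -0.06. Single lists weighed on these values. The Wnt8a difference was 0.07 log2 fold without WT 1 and 0.27 without WT 3, the Lgalsl difference 0.10 without cKO 1, 0.13 without cKO 3 and 0.35 without cKO 2, and the Ctnnd1 difference -0.19 without WT 1.

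Peaks called in only some lists lay inside 124 clusters and numbered 264, or 41.9 per Mb of cluster span against 15.4 per Mb of chromosomes 1 to 19. The rule favours dense stretches, so these densities are a description. Of 323 peaks found in all 3 cKO and no WT lists, 3 (0.93%) lay inside clusters. Of 79 found in all 3 WT and no cKO lists, 1 (1.27%) did. Among all 37810 peaks called in only some lists the share was 0.70%, so these few peaks are a description and no result on genotype. The first 3 were chr2:170331996-170332327 nearest to Bcas1, chr9:70818670-70819106 nearest to Adam10, and chr16:30036081-30036627. The chr16 peak lay 3203 bp from a TSS of another gene than Hes1, the protein-coding gene named for it. The nearest Hes1 TSS was 7877 bp outside the span of that cluster. The last, found in WT lists only, was chr15:38483712-38484629 nearest to Azin1. Their folds in the lists that called them were low, 2.39 to 4.75 for the first 3 and 2.57 to 3.01 for the last. Each list had 55 to 149 such further peaks inside clusters, with 112 ± 49.7 in WT and 120 ± 25.4 in cKO (SD, n = 3 each, exact permutation p = 0.8), and peaks covered 16.4% ± 1.70 of cluster spans in WT and 18.1% ± 1.83 in cKO (exact permutation p = 0.3). This difference of 1.64 percentage points was 0.776 without WT 1, 0.905 without cKO 1, 2.48 without WT 3 and 2.66 without cKO 2. Relative to the whole lists, both measures were lower in cKO. Clusters held 3.01% ± 0.193 of each list's covered bases in WT and 2.81% ± 0.238 in cKO (exact permutation p = 0.4). They held 0.822% ± 0.106 of each list's further peaks in WT and 0.697% ± 0.174 in cKO (exact permutation p = 0.4).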

How the data were processed

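The authors performed ATAC-seq on dissociated crypt cells and processed the reads with the nf-core ATAC-seq pipeline (Trim Galore, BWA, blacklist filtering, GRCm38). MACS2 called narrow peaks for each sample separately. For every peak, the 6 deposited lists give a score (10 times −log10 q, truncated), a fold ratio of summit pileup to local background, −log10 p, −log10 q and a summit offset, all made by the authors. The study tested read counts per peak, which were not used here, and fold was compared in their place. Total reads were not used, so depth was read from the background coverage implied by the lists, 1.75 to 2.29 fragments per base.

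The genotype label set the group of each list. The whole pileup at each summit was solved from fold and −log10 p under the caller's Poisson model, and a value within 0.02 of a whole number was found for 100% of peaks. Where a consensus peak held several peaks of a list, the one of highest fold was used. Log2 fold was quantile-normalised over the 32147 peaks called in all lists and compared with limma 3.58.1 (eBayes with trend) in R 4.3.3, with Benjamini-Hochberg adjustment over all peaks, or over all 11456 runs for values averaged per run. The fit was tried on simulated single peaks of equal spread, with planted differences larger than any seen among members. Smaller differences and run averages were not simulated. Per-list summaries were compared by exact permutation, two-sided. The labels number the samples without saying that each came from a separate mouse, and p-values measure only the spread between these samples. Same-numbered WT and cKO lists are not said to be paired, so no pairing was used in the main comparisons. Genes and TSSs came from GENCODE M21, and sequence from the GRCm38 genome. Other software was Python 3.11.15 (scipy 1.17.1, numpy 2.4.6, pandas 2.3.3, matplotlib 3.10.9).

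Clusters named were the 12 widest, the 3 with most peaks and the 3 with the smallest p in each direction. Members named were the 5 with the smallest p in each direction and the 5 of highest mean fold percentile, and up to 8 genes per list were named by cluster rank. An item of the absorptive list is not reported here. Peaks present in only 1 genotype and Cdx2 were named after their values were seen. The members, the gene lists and the motifs were chosen with earlier results of these data known. Alternatives changed the gap, the minimum number of peaks, the TSS distance, the number of lists, the measure, the normalization, the window and the replicates.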

Additional observations from a re-analysis of the deposited data

How the results depend on the processing

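Of 395 values recomputed for 50 results, 352 kept their direction and their side of the threshold, 29 moved, 8 changed sign and 6 lost significance. All 6 were the fold percentile difference between clustered and lone peaks with 1 list left out. The smallest p then possible by exact permutation of signs is 0.0625, so this loss was set in advance. That difference is given above without a test. The number of members and clusters followed the rule, with 133 and 26 at gaps of up to 5 kb, 2579 and 402 at 20 kb, 230 and 24 for at least 8 peaks, 516 and 87 for peaks with −log10 q of at least 5, 661 and 116 for summits over 5 kb from a TSS, and 3501 and 575 for peaks in at least 4 lists. At gaps of up to 5 kb, the median width difference to lone peaks was -38.3 bp (exact permutation p = 0.281) and the difference in further peaks, cKO minus WT, was -3.0. Left out one list at a time, that number ranged from -21.3 to 23.2, with the sign changing without WT 1 or cKO 1. Over all peaks limma passed 4 by pileup, 1 with median centring and 0 to 3 without one list, against 0, and over all runs 1 by pileup; none was a member or a cluster. By pileup the Tekt5 member (-0.0039), the Lgalsl cluster (-0.0624) and the Ctnnd1 cluster (0.0197) changed sign. The fold percentile difference between clustered and lone peaks was -19.8 to -15.2 without one list and 22.4 by pileup, an alternative chosen after seeing the data. The A+T content of members differed from that of peaks in runs of 2 to 4 by -1.45 points. Over whole consensus peaks, the shares of members minus lone peaks moved to -5.33 points for CDX, -3.36 for FOXA and -2.90 for CTCF, and within 50 bp to 2.90 for KLF. Protein-coding genes near a cluster numbered 730 within 100 kb and 127 by gene body.

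The labels give WT and cKO lists the same numbers without saying what they share, and the deviations of same-numbered lists correlated at -0.271, -0.00435 and 0.127. With a replicate block limma passed 2 of all peaks and 0 members, and the member fold percentile difference of -5.29 had an exact permutation p of 0.25, the smallest that 3 pairs allow.

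The limits are few lists, no counts per peak and a fold that depends on a local background. Peaks close to the calling threshold could not be compared, since only peaks called in every list entered the fit. Fewer cells of a type and less open chromatin per cell cannot be told apart in these bulk samples.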

Other observations

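By fold percentile, averaged over the 6 lists, the highest member was a 969 bp peak at chr6:47757547-47758515, 55322 bp from the nearest protein-coding TSS, that of Pdia4, a gene of protein folding in the endoplasmic reticulum. Its deposited fold was 14.2, 20.8 and 19.03 in WT and 17.6, 19.3 and 17.6 in cKO, a mean percentile of 99.5. The next were nearest to the Wnt ligand gene Wnt7b (97.4), Atl2 (95.2), Arid1b (92.9), a chromatin remodelling subunit gene, and Atp2b1 (92.1), a calcium pump gene. These nearest protein-coding TSSs were far away, at 52285, 22515, 149366 and 219153 bp in the same order. The Wnt7b member had pileups of 151, 321 and 365 fragments in WT and 465, 244 and 292 in cKO, and its mean of 306 fragments was the highest of all members.

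Clusters were unevenly spread over chromosomes. Chromosome 11 held 22 clusters, 18.02 per 100 Mb, and chromosome 19 held 11, 17.9 per 100 Mb, while chromosome 14 held 3, 2.40 per 100 Mb, and chromosome 9 held 4, 3.21 per 100 Mb. Members were 10.1% of the distal constant peaks of chromosome 11 and 2.78% of those of chromosome 14.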
